A study of Mus musculus with 15 samples.

Results

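The genes of the cell cycle and of DNA replication were followed across 3 neutrophil populations. The set holds 55 genes named for their place in the cycle: 8 of G1 phase, 16 of DNA replication, 28 of mitosis and 3 other genes of proliferating cells. All probes carrying the symbol of a member were taken, which gave 69 probes for 44 of the 55 genes, out of 11075 genes measured. Not measured here, for lack of a kept probe under their symbol, were Cdk4, Gmnn, Ccnb1, Ccnb2, Aurkb, Nek2, Bub1, Cenpe, Kif20a, Racgap1 and Mki67, so that the B-type cyclins and the Ki-67 gene are missing from all counts.

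All neutrophils were taken as Ly6G+ cells of BALB/c mice, and their RNA was hybridized to 15 Illumina mouse bead arrays. Normal neutrophils (NN, n = 7) were those of naïve mice without a tumor, taken from bone marrow. Granulocytic myeloid-derived suppressor cells (G-MDSC, n = 4) came from spleens of mice with flank tumors of AB12, a mesothelioma line grown from a BALB/c mouse, once tumors reached 500 to 700 mm3 at 21 to 25 days. Tumor-associated neutrophils (TAN, n = 4) came from AB12 flank tumors of 250 to 300 mm3 at 12 to 15 days. The RNA of 2 to 4 mice was pooled for each array, so that the spread between arrays is one between pools. By the study's methods marrow was flushed and spun over a Percoll gradient, while spleens and tumors were sorted and tumors digested, whereas the sample labels give CD11b beads and a Ly6G sort for all 3 populations. Organ, tumor stage and preparation change together with the population and cannot be told apart.

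Cells prepare to divide in G1 phase, when D-type cyclins and then cyclin E with Cdk2 inactivate the retinoblastoma protein and release E2F transcription factors. E2F factors switch on the genes that license and copy DNA, such as the Mcm helicase and the enzymes that make nucleotides. Later in the cycle the DREAM complex gives way to B-Myb and FOXM1, which switch on the genes of mitosis. In the marrow, neutrophil precursors divide until about the myelocyte stage, and mature neutrophils no longer divide.

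Replication and mitosis genes are known for different promoter elements, and the promoters of members were read to show this difference. RefSeq promoter windows of the mouse genome build GRCm38.p6, reaching from 250 bases before to 50 bases after a gene's start, were found for 35 of the 44 measured genes (39 windows). Motifs were searched on both strands. They were the cell cycle genes homology region (CHR, as TTTGAA or TTCGAA), the CCAAT box, and an E2F site (as TTTCCCGC, TTTGGCGC, TTTCGCGC or TTTGCCGC). TTCGAA reads the same on both strands and was counted once, and a pair of E2F matches on opposite strands can overlap. Of 17 windows of mitosis genes, 14 (82.4%) held CHR letters and 1 (5.88%) held E2F letters. Of 16 windows of replication genes, 2 (12.5%) held CHR letters and 7 (43.8%) held E2F letters. Over 32851 windows of all genes, 19.2% held CHR letters and 2.26% held E2F letters. CCAAT stood in 14 mitosis windows (82.4%), in 12 replication windows (75%) and in 37.4% of all windows. These are matches of letters, not measured binding.

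The windows of 3 mitosis genes and 3 replication genes on which the results turn are shown, chosen among those that hold the letters, 5′ to 3′ on the gene's strand, with matches to the 3 motifs in capitals. Of the members described further on, Nusap1, Birc5, Mad2l1, Tk1, Tyms, E2f1 and Ccne1 held none of the 3 motifs, nor did a window of Ccnd3. The window at another start of Uhrf1 held CCAAT but no E2F letters.
Prc1 (mitosis, chr7:80294201-80294500, + strand): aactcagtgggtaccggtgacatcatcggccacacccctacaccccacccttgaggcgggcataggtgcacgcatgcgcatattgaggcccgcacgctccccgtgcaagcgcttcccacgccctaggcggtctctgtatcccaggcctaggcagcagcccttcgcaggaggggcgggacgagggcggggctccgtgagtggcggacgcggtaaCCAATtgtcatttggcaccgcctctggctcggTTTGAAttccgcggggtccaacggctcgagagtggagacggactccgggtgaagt
Top2a (mitosis, chr11:99024140-99024439, - strand): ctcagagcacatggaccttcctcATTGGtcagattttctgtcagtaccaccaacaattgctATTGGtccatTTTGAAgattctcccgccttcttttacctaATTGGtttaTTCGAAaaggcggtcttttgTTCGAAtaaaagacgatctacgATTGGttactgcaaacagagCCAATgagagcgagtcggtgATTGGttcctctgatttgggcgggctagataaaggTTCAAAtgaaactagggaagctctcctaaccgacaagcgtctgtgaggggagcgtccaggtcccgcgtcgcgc
Cdk1 (mitosis, chr10:69352863-69353162, - strand): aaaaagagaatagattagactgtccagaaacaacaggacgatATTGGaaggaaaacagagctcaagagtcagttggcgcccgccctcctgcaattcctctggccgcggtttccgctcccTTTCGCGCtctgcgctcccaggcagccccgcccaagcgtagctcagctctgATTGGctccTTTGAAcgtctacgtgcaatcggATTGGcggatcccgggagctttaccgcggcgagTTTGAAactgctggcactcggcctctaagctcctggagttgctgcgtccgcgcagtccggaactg
Uhrf1 (replication, chr17:56304063-56304362, + strand): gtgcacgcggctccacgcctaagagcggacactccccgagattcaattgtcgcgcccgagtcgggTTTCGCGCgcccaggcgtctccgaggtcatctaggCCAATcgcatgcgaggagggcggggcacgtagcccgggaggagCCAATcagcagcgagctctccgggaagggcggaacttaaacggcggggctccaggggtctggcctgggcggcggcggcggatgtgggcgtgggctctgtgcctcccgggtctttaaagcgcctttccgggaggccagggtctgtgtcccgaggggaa
Mcm5 (replication, chr8:75109259-75109558, + strand): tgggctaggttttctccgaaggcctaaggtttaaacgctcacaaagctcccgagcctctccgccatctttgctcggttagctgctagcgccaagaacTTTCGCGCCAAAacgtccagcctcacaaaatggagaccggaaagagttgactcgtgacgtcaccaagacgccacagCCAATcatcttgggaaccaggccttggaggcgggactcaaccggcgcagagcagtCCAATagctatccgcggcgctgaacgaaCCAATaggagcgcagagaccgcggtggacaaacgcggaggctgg
Mcm6 (replication, chr1:128359656-128359955, - strand): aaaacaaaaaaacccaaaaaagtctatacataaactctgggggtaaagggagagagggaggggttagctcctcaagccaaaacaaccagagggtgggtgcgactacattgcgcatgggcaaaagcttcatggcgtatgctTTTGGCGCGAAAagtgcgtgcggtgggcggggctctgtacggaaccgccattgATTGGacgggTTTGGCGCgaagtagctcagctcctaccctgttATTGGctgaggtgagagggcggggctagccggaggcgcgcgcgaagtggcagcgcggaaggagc

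The arrays differed in ways that touch the values of these genes. The array files hold no detection p, and a probe was taken as above background where it exceeded the 95th percentile of the 9375 probes missing from the authors' normalized table. The median signal of those probes was 105 or more in NN 6, NN 7 and all G-MDSC and 94.3 or less in NN 1 to NN 5 and all TAN. Where probes of one gene could be set against each other, relative to NN, TAN 1 and TAN 2 had probes more than 4-fold apart in 22.6 and 22% of 2956 genes, TAN 4 in 17.5% and TAN 3 in 5.48%, against 1.32 to 2.47% in G-MDSC and 0 in NN. TAN 3 and G-MDSC 1 stood apart from their groups in many members, and values without them are given where they matter. All 9 measured markers of mature neutrophils, S100a8 and S100a9 among them, were above background on every array. Their mean log2 intensity lay between 12.70 and 12.97 in TAN, below the 13.49 to 13.75 of G-MDSC and the 13.63 to 13.85 of NN. In TAN 6 of the 9 (66.7%) were lower than in NN and 1 (11.1%) was higher. Over all genes 26.2% were lower and 36.8% higher. The log2 differences of the 9 ran from -4.33 to 3.15, and those lower included Itgam, the gene of CD11b (-2.61, adjusted p = 1.6e-06, limma). The number of arrays limits the precision.

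In splenic G-MDSC nearly all cell cycle genes were lower than in marrow NN. Of 44 members, 37 fell and 33 of these had no overlap between the groups, while 3 rose (Ccnd1, Ccnd2 and Kif23) and Mcm4, Mcm7, Pcna and Ube2c did not pass the test. Among all 11075 genes 38.0% were called in the same comparison, 19.7% as lower (15.4% with no overlap) and 18.3% as higher. Calls are those of one limma model over all 15 arrays at an adjusted p under 0.05, with each gene given by its probe of highest mean signal, and differences are between group means of normalized log2 intensity. The median log2 difference of the members was -1.64, against -0.01 over all genes. Of 20 mitosis genes 18 fell (median -1.69), and of 15 replication genes 12 fell (median -1.93), with a rise of 1 mitosis gene and of 0 replication genes.

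**Figure D1:**
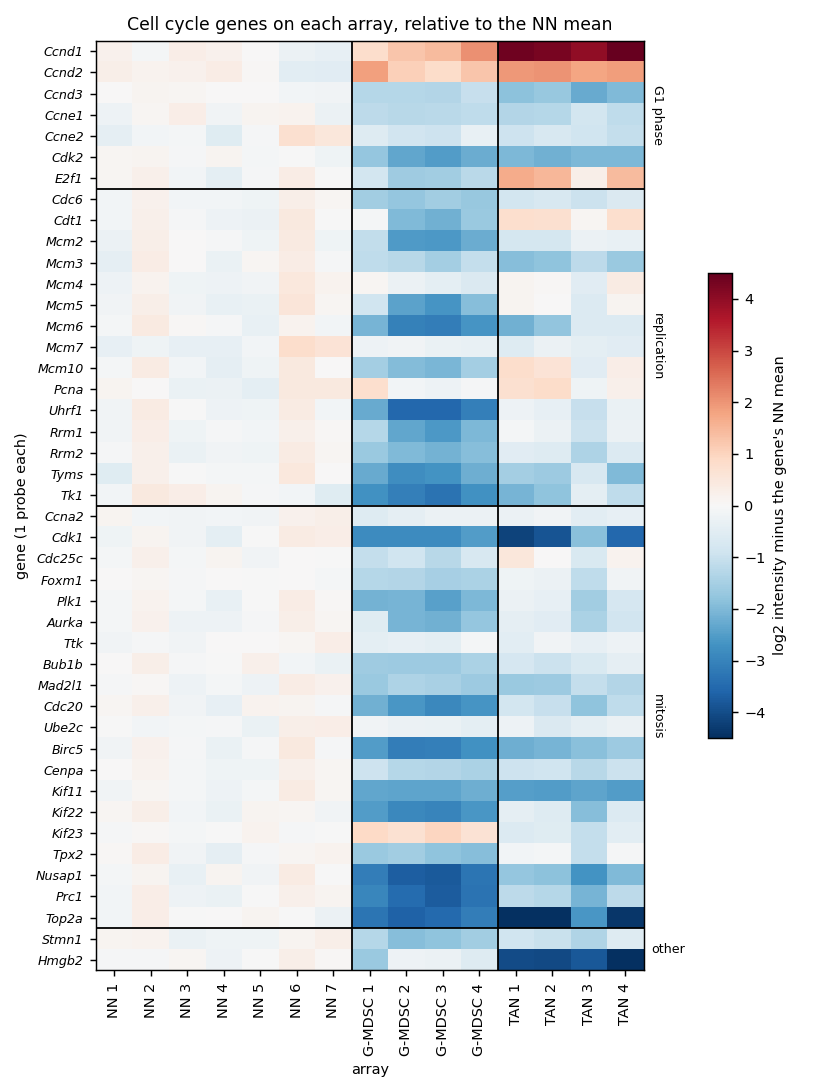
Log2 intensity of each of the 44 measured members (rows, grouped by place in the cell cycle) on each of the 15 arrays (columns), minus the mean of the gene over the 7 NN (color scale, log2 units). The 4 G-MDSC columns are low for replication and for mitosis genes alike, and the TAN columns are low mainly for mitosis genes, while Ccnd1 and Ccnd2 at the top are high in both.

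Among the members that fell most in G-MDSC were genes of the mitotic spindle and of cell division. Nusap1, which bundles spindle microtubules, had log2 intensities of 11.41, 11.72 and 12.10 in NN (lowest, median and highest), of 8.64, 8.04, 7.95 and 8.45 in G-MDSC 1 to 4, and of 10.00, 9.89, 9.05 and 9.76 in TAN 1 to 4. Every G-MDSC lay below every TAN, and every TAN lay below every NN. The fall from NN was 11.1-fold in G-MDSC (log2 difference -3.47, standard error 0.18, adjusted p = 5.8e-10, limma) and 4.16-fold in TAN (-2.06, standard error 0.18, adjusted p = 8.4e-08). Prc1, a bundler of microtubules at the midzone of the dividing cell, showed the same order. It had 11.65, 11.92 and 12.23 in NN (lowest, median and highest), 9.0, 8.49, 8.19 and 8.61 in G-MDSC, and 10.77, 10.67, 9.85 and 10.76 in TAN, with TAN 3 lowest of the TAN. The log2 difference from NN was -3.37 in G-MDSC (adjusted p = 9.8e-10) and -1.43 in TAN (adjusted p = 6.3e-06). Birc5, which encodes survivin of the chromosomal passenger complex, fell by 2.86 on the log2 scale in G-MDSC (adjusted p = 6.9e-10), where the arrays held 7.44 to 8.03 against 10.26 to 10.98 in NN. Kif22, a kinesin that moves chromosomes, fell by 2.75 (adjusted p = 8.4e-08), with 9.92 to 10.48 in NN and 7.24 to 7.70 in G-MDSC.

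Top2a and Cdk1 were low in both G-MDSC and TAN. Top2a, the topoisomerase that untangles replicated chromosomes, had 10.64, 10.88 and 11.22 in NN (lowest, median and highest), 7.61, 7.28, 7.39 and 7.78 in G-MDSC, and 6.22, 6.25, 8.27 and 6.53 in TAN 1 to 4. No G-MDSC and no TAN reached the NN, and TAN 3 was the highest TAN, above all G-MDSC, while the other TAN lay below all G-MDSC. Its log2 difference from NN was -3.39 in G-MDSC (adjusted p = 1.5e-07) and -4.08 in TAN (adjusted p = 6.6e-09, 16.9-fold), and TAN 3 alone minus the NN mean was -2.63. Top2a was above background in 2 of 4 TAN, so that its difference in TAN rests in part on background signal. Cdk1, the kinase that drives entry into mitosis, had 9.73, 10.13 and 10.54 in NN, 7.33, 7.32, 7.33 and 7.64 in G-MDSC, and 6.0, 6.28, 8.29 and 6.63 in TAN. It too was highest in TAN 3 among the TAN. The log2 difference from NN was -2.76 in G-MDSC (adjusted p = 3.3e-06) and -3.36 in TAN (adjusted p = 1.4e-07), where Cdk1 too was above background on 2 of 4 arrays.

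Kif23, a kinesin of the midzone that helps the daughter cells part, went against its class. Its log2 intensities were 10.68, 10.76 and 10.95 in NN (lowest, median and highest), 11.68, 11.48, 11.75 and 11.43 in G-MDSC, and 10.17, 10.23, 9.72 and 10.32 in TAN. All G-MDSC lay above and all TAN lay below the NN. The rise in G-MDSC was 1.75-fold (log2 difference 0.81, standard error 0.11, adjusted p = 2.5e-05), and Kif23 was the only mitosis gene that rose there. Its promoter window held CHR letters and a CCAAT box, as in most mitosis genes.

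Among the replication genes the fall in G-MDSC was led by Uhrf1, Tk1, Mcm6 and Tyms. Uhrf1, which carries DNA methylation over to the new strand, had 11.29, 11.42 and 11.91 in NN (lowest, median and highest), 9.25, 8.0, 7.99 and 8.45 in G-MDSC, and 11.29, 11.15, 10.48 and 11.23 in TAN. The G-MDSC lay far below the NN, whereas TAN 1 touched the range of the NN and TAN 3 lay lowest. The fall was 8.62-fold in G-MDSC (log2 difference -3.11, standard error 0.23, adjusted p = 2.3e-08), while in TAN the difference from NN was -0.49 (adjusted p = 0.0726), which passed the test without G-MDSC 1 (adjusted p = 0.0220). Tk1, thymidine kinase of the nucleotide salvage path, had 10.14, 10.63 and 11.12 in NN, 7.96, 7.61, 7.38 and 7.96 in G-MDSC, and 8.61, 8.86, 10.24 and 9.55 in TAN. It fell by 2.96 in G-MDSC (adjusted p = 1.8e-07), with no overlap, and by 1.37 in TAN (adjusted p = 2.4e-04), where TAN 3 lay within the NN. Mcm6, a subunit of the replicative helicase, fell by 2.73 in G-MDSC (adjusted p = 9.4e-07). Tyms, thymidylate synthase, fell by 2.49 (adjusted p = 2.0e-07). Mcm2, another helicase subunit, and Rrm1, the large subunit of ribonucleotide reductase, fell by 2.12 (adjusted p = 2.7e-06) and 2.05 (adjusted p = 1.4e-06).

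Not all replication genes passed as lower in G-MDSC. Pcna, the clamp that holds the polymerase on DNA, had 7.02, 7.47 and 7.90 in NN (lowest, median and highest), 8.22, 7.34, 7.21 and 7.39 in G-MDSC, and 8.19, 8.27, 7.27 and 7.67 in TAN. The groups overlapped, with log2 differences from NN of 0.09 in G-MDSC (adjusted p = 0.805) and 0.40 in TAN (adjusted p = 0.157). Mcm4 had -0.31 in G-MDSC (adjusted p = 0.196) and 0.01 in TAN (adjusted p = 0.956). Mcm7 had -0.26 in G-MDSC (adjusted p = 0.360), but NN 6 and NN 7, which share the higher background of the G-MDSC, were highest with 7.58 and 7.41 against 6.41 to 6.66 in NN 1 to NN 5. Within the arrays of higher background its difference was -0.97 (adjusted p = 8.4e-04). Mcm7 was above background in 4 of 7 NN, in 2 of 4 G-MDSC and in no TAN, so that the size of its differences is limited by the background.

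In TAN the classes parted. Of 44 members, 30 were lower than in NN, 25 of them with no overlap, 3 were higher (Ccnd1, Ccnd2 and E2f1) and 11 did not pass the test, while among all genes 63.0% were called, 26.2% as lower (19.0% with no overlap) and 36.8% as higher. Mitosis genes were lower in 18 of 20 cases (median log2 difference -0.84), and replication genes in 6 of 15 (median -0.49), beside a median of 0.12 over all genes. Without G-MDSC 1, which enters this comparison through the shared variance only, 9 of 15 replication genes passed as lower, with Mcm2, Uhrf1 and Rrm1 added, and 18 of 20 mitosis genes. The same counts came from a model of the NN and TAN alone. In the model of all arrays no gene of either class was higher. The mitosis genes that did not pass were Tpx2 and Cdc25c. Ccna2 (cyclin A2), Ttk, a kinase of the spindle checkpoint, and Ube2c, which tags mitotic cyclins for breakdown, were not above background on any TAN and were at least 1.02-fold, 1.08-fold and 1.09-fold lower than in NN. These calls lay close to the threshold, and Ccna2 lost its call without TAN 3 (-0.26, adjusted p = 0.0560) or TAN 4 (-0.30, adjusted p = 0.0521), Ttk without TAN 1 (-0.24, adjusted p = 0.0917) and Ube2c without TAN 2 (-0.30, adjusted p = 0.0501). In G-MDSC, Ttk lost its call without G-MDSC 1 (adjusted p = 0.0636), 2 (adjusted p = 0.0615) or 3 (adjusted p = 0.0770). Array by array, the median of the 20 mitosis genes relative to their NN means was -0.68, -0.77, -1.34 and -0.81 in TAN 1 to 4, and that of the 15 replication genes was -0.51, -0.38, -0.61 and -0.33. In each TAN the median of the mitosis genes lay below that of the replication genes, and in 3 of the 4 G-MDSC the order was the other way, with -1.67, -1.86, -1.97 and -1.83 for mitosis and -1.27, -1.99, -2.17 and -1.92 for replication genes. The difference between the classes carries no test.

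**Figure D2:**
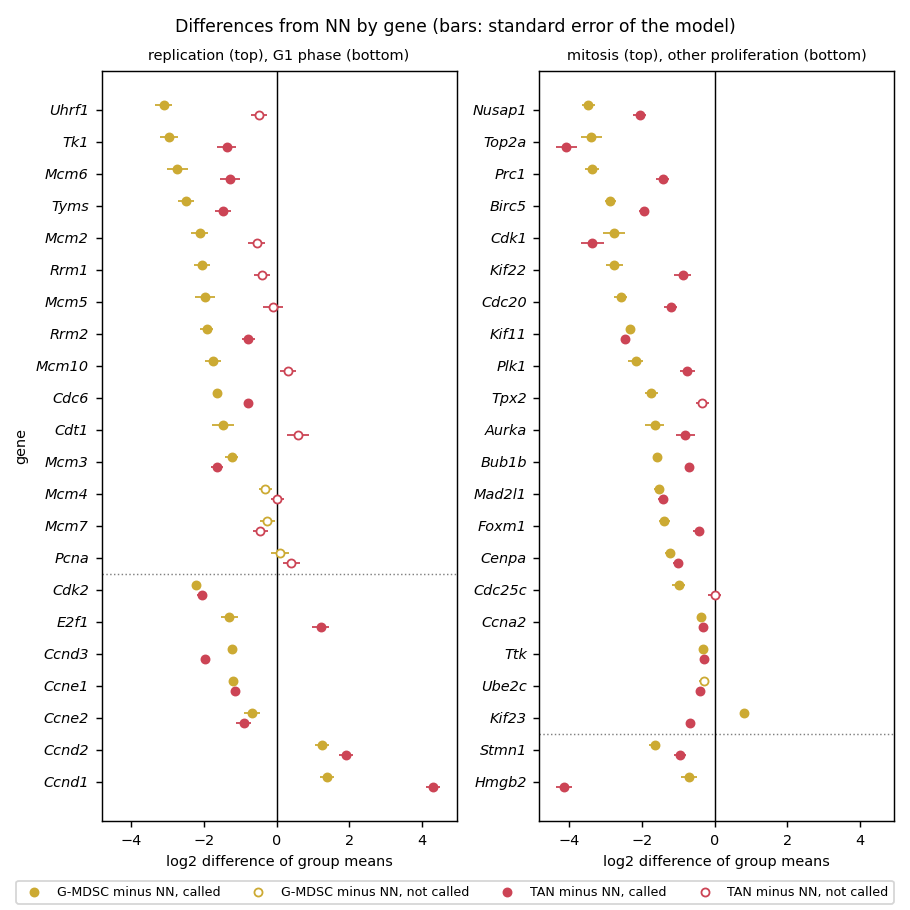
Log2 difference of group means from NN for each measured member (points, with the standard error of the limma model as bars), G-MDSC in yellow and TAN in red. Filled points passed the test at an adjusted p under 0.05. In the left panel the replication genes range from -3.11 to 0.09 in G-MDSC (median -1.93) and from -1.65 to 0.58 in TAN (median -0.49). In the right panel Top2a, Cdk1 and Kif11 are low in both.

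Among the mitosis genes Top2a, Cdk1, Kif11 and Nusap1 had the lowest values in TAN relative to NN. Kif11, the motor that pushes the spindle poles apart, had 8.80, 8.92 and 9.39 in NN (lowest, median and highest), 6.66, 6.63, 6.65 and 6.83 in G-MDSC, and 6.53, 6.49, 6.64 and 6.5 in TAN. Both populations lay below all NN and overlapped each other, with log2 differences of -2.32 in G-MDSC (adjusted p = 1.1e-10) and -2.47 in TAN (adjusted p = 1.6e-11), each with a standard error of 0.11. Kif11 was above background in 1 of 4 TAN, so that the size of its difference there is limited by the background. Birc5 had -1.94 (adjusted p = 2.2e-08) and Mad2l1, a guard of the spindle checkpoint, -1.42 (adjusted p = 1.8e-07). Among replication genes Mcm3, Tyms, Mcm6, Rrm2 and Cdc6 were lower in TAN with no overlap. Mcm3, another helicase subunit, had 7.65, 8.06 and 8.38 in NN (lowest, median and highest), 6.92, 6.79, 6.53 and 6.99 in G-MDSC, and 6.12, 6.22, 6.87 and 6.37 in TAN. The difference of TAN from NN was -1.65 (standard error 0.17, adjusted p = 3.3e-07), with Mcm3 above background in TAN 3 only among the TAN. Tyms had -1.47 (adjusted p = 2.5e-05) and Mcm6 -1.28 (adjusted p = 7.8e-04), and TAN 3 alone minus the NN means was -0.72 and -0.61. Weaker probes of both genes differed in sign. Those of Tyms had -1.14 (adjusted p = 3.7e-05), 0.27 (adjusted p = 0.0517) and 0.19 (adjusted p = 0.238, limma). Those of Mcm6 had -2.67 (adjusted p = 1.2e-06) and 0.04 (adjusted p = 0.750). Rrm2, the small subunit of ribonucleotide reductase, had -0.78 (adjusted p = 7.6e-04), and Cdc6, which loads the helicase, -0.79 (adjusted p = 7.0e-06).

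Several genes that license origins of replication overlapped between TAN and NN or lay higher in TAN. Cdt1, which loads the helicase together with Cdc6, had 9.60, 9.82 and 10.29 in NN (lowest, median and highest), 9.78, 7.87, 7.68 and 8.20 in G-MDSC, and 10.61, 10.57, 9.93 and 10.63 in TAN. All TAN but TAN 3 lay above the NN, and all G-MDSC but G-MDSC 1 lay far below. The log2 difference of TAN from NN was 0.58 (adjusted p = 0.109) and passed the test without TAN 3, at 0.75 (adjusted p = 0.0455), and without G-MDSC 1, at 0.58 (adjusted p = 0.00612). Mcm10 and Pcna also passed as higher without TAN 3 (0.57, adjusted p = 0.0104, and 0.59, adjusted p = 0.0327), so that the number of members higher in TAN than in NN went from 3 to 6. A weaker probe of Mcm10 went the other way and was lower in TAN than in NN over all arrays (-0.66, adjusted p = 0.0111, limma). It held 6.06, 6.36, 7.58 and 6.83 in TAN 1 to 4, with TAN 3 highest. Mcm5 had 10.74, 10.93 and 11.63 in NN, 10.17, 8.66, 8.43 and 9.15 in G-MDSC, and 11.18, 11.10, 10.44 and 11.19 in TAN. Its values in TAN overlapped those in NN (-0.10, standard error 0.27, adjusted p = 0.780), and it fell by 1.97 in G-MDSC (adjusted p = 2.7e-05). Mcm2 missed the threshold in TAN (-0.55, adjusted p = 0.0549) and passed it without TAN 3 (-0.65, adjusted p = 0.0320), without G-MDSC 1 (-0.55, adjusted p = 0.00528) or without G-MDSC 3 (-0.55, adjusted p = 0.0497).

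Set directly against each other, TAN held more RNA of many cell cycle genes than G-MDSC. Of 44 members, 26 were higher in TAN, 22 with no overlap, 3 were lower (Ccnd3, Kif23 and Hmgb2) and 15 did not pass, while 59.0% of all genes were called, 36.4% as higher (27.1% with no overlap) and 22.6% as lower. Of the replication genes 11 of 15 were higher (median log2 difference 1.45) and of the mitosis genes 11 of 20 (median 0.85), while the median over all genes was 0.13. With the mean over the probes of a gene the medians were 0.86 and 0.31, with 11 replication and 10 mitosis genes higher. Uhrf1 led with 2.62 (standard error 0.26, adjusted p = 6.9e-07, 6.13-fold), followed by Mcm10 with 2.07 (adjusted p = 5.0e-06), Cdt1 with 2.05 (adjusted p = 1.1e-04), Mcm5 with 1.88 (adjusted p = 1.0e-04), Rrm1 with 1.65 (adjusted p = 3.7e-05) and Tk1 with 1.59 (adjusted p = 2.7e-04). Among mitosis genes Prc1 had 1.94 (adjusted p = 1.9e-06), Kif22 1.87 (adjusted p = 1.7e-05), Plk1, a kinase of mitotic entry, 1.42 (adjusted p = 7.2e-05), Nusap1 1.41 (adjusted p = 3.5e-05) and Tpx2, which seeds spindle microtubules, 1.40 (adjusted p = 3.0e-05). Kif23 had -1.48 (adjusted p = 1.5e-07). The weaker probe of Mcm10 did not pass (0.40, adjusted p = 0.157). Aurka, another mitotic kinase, had 0.84 (adjusted p = 0.0227), a call that was lost without G-MDSC 2, 3 or 4 or without TAN 1 or 2 (0.67 to 0.80). No array level of background held both populations, so that this comparison has no value within one level.

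**Figure D3:**
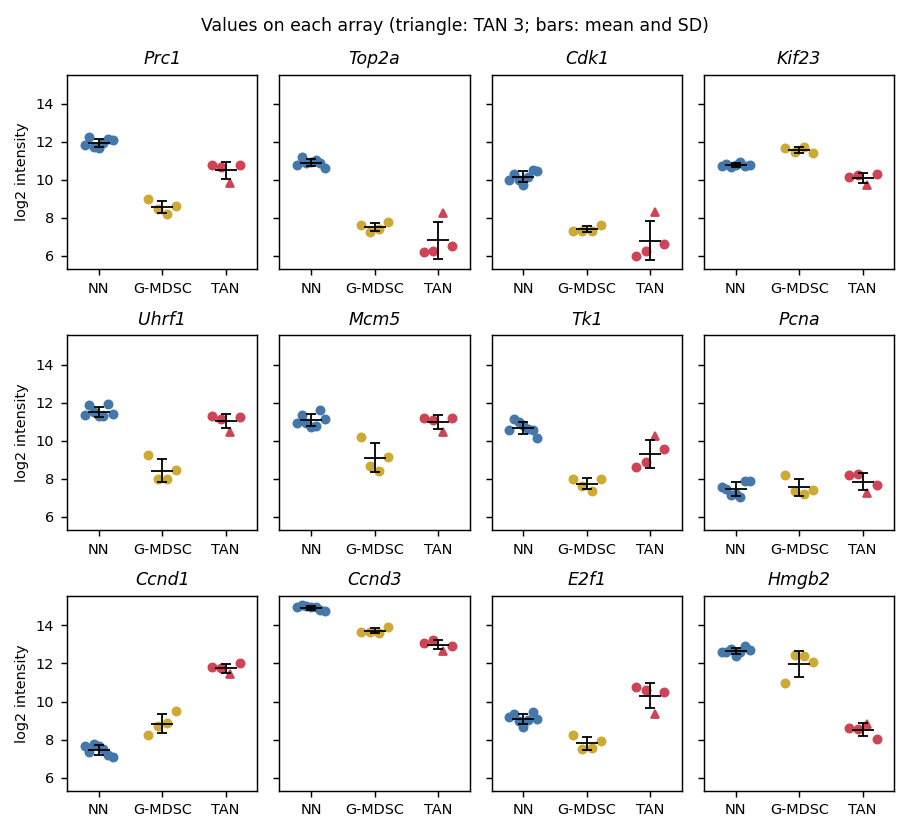
Log2 intensity of 12 members on each array, with the mean and SD of each group as bars and TAN 3 as a triangle. Prc1 and Uhrf1 are lowest in G-MDSC, Top2a and Cdk1 are low in G-MDSC and lower still in 3 of 4 TAN, and Ccnd1 steps up from NN to G-MDSC to TAN with no overlap.

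Probes of one gene did not always move together in TAN. Several probes were kept for 14 members (39 probes). From NN to G-MDSC all probes of each of the 14 genes had the same sign. From NN to TAN 10 of 14 genes did, and from G-MDSC to TAN 7 of 14. Birc5 was the only member with probes called in both directions between TAN and G-MDSC. Its probe of highest signal had 8.03, 7.44, 7.46 and 7.82 in G-MDSC and 8.36, 8.47, 8.67 and 8.93 in TAN (0.92, adjusted p = 3.4e-04), while another held 7.16, 7.43, 7.19 and 7.72 in G-MDSC and 6.14, 6.16, 7.69 and 6.39 in TAN. This second probe was called lower in TAN, and only TAN 3 matched the G-MDSC on it. A weaker probe of Mcm6 had 6.36, 6.33, 8.35 and 6.70 in TAN against 7.00 to 7.80 in G-MDSC, again with TAN 3 alone on the high side. Counted over all 69 probes, 59 were lower and 4 higher in G-MDSC than in NN, 47 lower and 4 higher in TAN than in NN, and 34 higher and 8 lower in TAN than in G-MDSC. Of the 23 replication probes 15 were higher and 0 lower in TAN than in G-MDSC, and of the 30 mitosis probes 14 were higher and 2 lower. The part of probe disagreement in the low TAN values of Top2a and Cdk1 was not tested.

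The G1 genes, which act before replication, did not move as one class. Cyclin D genes parted. Ccnd1, cyclin D1, had 7.09, 7.49 and 7.76 in NN (lowest, median and highest), 8.26, 8.72, 8.88 and 9.51 in G-MDSC, and 11.83, 11.74, 11.45 and 12.02 in TAN. The 3 groups did not overlap. It rose 2.61-fold in G-MDSC (log2 difference 1.38, standard error 0.20, adjusted p = 3.4e-05) and 19.7-fold in TAN (4.30, standard error 0.20, adjusted p = 3.3e-11), the largest rise among the members. A second probe rose by 4.34 in TAN, but the last, dim probe held 6.37, 6.33, 8.23 and 6.52 in TAN against 6.36 to 6.61 in NN. Ccnd2, cyclin D2, had 8.16, 8.85 and 9.03 in NN, 10.51, 9.74, 9.51 and 9.93 in G-MDSC, and 10.65, 10.69, 10.45 and 10.55 in TAN. All G-MDSC and all TAN lay above the NN, with rises of 1.24 (adjusted p = 9.0e-05) and 1.91 (adjusted p = 3.8e-07). Ccnd3, cyclin D3, went down instead. It had 14.78, 14.96 and 15.07 in NN, 13.66, 13.67, 13.62 and 13.92 in G-MDSC, and 13.09, 13.22, 12.66 and 12.94 in TAN, a fall of 1.22 in G-MDSC (adjusted p = 1.7e-07) and of 1.96 in TAN (adjusted p = 2.5e-10) with no overlap between any of the groups.

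Cyclin E and its kinase were lower in both populations. On its probe of highest signal, Cdk2 had 12.71, 12.87 and 13.03 in NN (lowest, median and highest), 11.17, 10.55, 10.39 and 10.65 in G-MDSC, and 10.86, 10.72, 10.89 and 10.89 in TAN. All G-MDSC and TAN lay below the NN there and overlapped each other. The fall was 4.61-fold in G-MDSC (-2.21, adjusted p = 1.1e-09) and 4.16-fold in TAN (-2.06, adjusted p = 8.2e-10). The weaker probes of Cdk2 had differences of -3.51, -3.25 and -1.22 in TAN relative to NN. Between TAN and G-MDSC they had -1.55 (adjusted p = 1.3e-06), -1.24 (adjusted p = 0.00188) and -0.22 (adjusted p = 0.384). Ccne1, cyclin E1, fell by 1.2 (adjusted p = 9.3e-07) and 1.14 (adjusted p = 6.1e-07), with 7.72 to 8.26 in NN, at most 6.83 in G-MDSC and at most 7.15 in TAN. Ccne2, cyclin E2, lay near background. It had -0.68 in G-MDSC (adjusted p = 0.0179), which was lost without G-MDSC 2 (-0.62, adjusted p = 0.0591) or G-MDSC 3 (-0.60, adjusted p = 0.0657), and was not above background in any TAN, where it was at least 1.28-fold lower than in NN (adjusted p = 0.00135). That bound sets the mean of the NN against the lowest signal above background on the TAN arrays.

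E2f1, the transcription factor that switches on replication genes, fell in one population and rose in the other. It had 8.65, 9.07 and 9.44 in NN (lowest, median and highest), 8.26, 7.50, 7.54 and 7.90 in G-MDSC, and 10.77, 10.60, 9.37 and 10.51 in TAN. All G-MDSC lay below the NN, and all TAN but TAN 3 lay above. The log2 difference from NN was -1.30 in G-MDSC (standard error 0.23, adjusted p = 3.4e-04) and 1.21 in TAN (standard error 0.23, adjusted p = 3.0e-04), or 1.53 without TAN 3 (adjusted p = 5.8e-07), while TAN 3 alone lay 0.27 above the NN mean. Between TAN and G-MDSC the difference was 2.51 (adjusted p = 1.3e-06). Its mitotic counterpart Foxm1 was lower in both on its probe of highest signal. It had 8.48 to 8.63 in NN, 7.06 to 7.26 in G-MDSC and, among TAN, 7.42 to 8.39, with differences of -1.38 (adjusted p = 1.5e-06) and -0.43 (adjusted p = 0.0173). Without TAN 3 the latter was -0.20. Within one background level it did not pass (-0.44, adjusted p = 0.0675, limma). A second probe of Foxm1 fell by 1.90 in G-MDSC (adjusted p = 4.0e-07) and did not pass in TAN (-0.39, adjusted p = 0.0680).

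Both measured genes outside the 3 classes were lower in G-MDSC and in TAN, and by unlike amounts. Hmgb2, a chromatin protein of dividing cells, had 12.42, 12.63 and 12.92 in NN (lowest, median and highest), 11.00, 12.43, 12.38 and 12.08 in G-MDSC, and 8.63, 8.58, 8.84 and 8.05 in TAN. TAN stood far below, while the G-MDSC other than G-MDSC 1 were close to the NN. It fell 17.6-fold in TAN (-4.14, standard error 0.22, adjusted p = 2.4e-10), the largest measured fall among the members. Top2a came next with -4.08 but was above background in 2 of 4 TAN, so that background limits this ranking. In G-MDSC Hmgb2 fell by 0.69 (adjusted p = 0.0247), which was lost without G-MDSC 1 (-0.36, adjusted p = 0.0744). Stmn1, stathmin, which takes microtubules apart, had 8.30, 8.70 and 8.86 in NN, 7.29, 6.66, 6.77 and 7.04 in G-MDSC, and 7.71, 7.6, 7.25 and 8.0 in TAN. It fell by 1.65 (adjusted p = 5.1e-07) and 0.95 (adjusted p = 7.4e-05).

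Other genes of the same steps, taken from lists that are not members, were counted in the same way, beside shares over all genes of 19.7% lower and 18.3% higher in G-MDSC relative to NN and of 26.2% lower and 36.8% higher in TAN. Of 22 further replication genes 18 fell and 0 rose in G-MDSC (median -1.21), and in TAN 9 were lower and 2 higher than in NN (median -0.18). Lig1, which joins the fragments of the lagging strand, fell by 2.27 in G-MDSC (adjusted p = 6.9e-07) and stood 2.39 above G-MDSC in TAN (adjusted p = 1.4e-06). The chromatin assembly genes Chaf1a and Chaf1b fell by 2.16 and 2.05 in G-MDSC. Of 34 further mitosis genes 26 fell and 2 rose in G-MDSC (median -1.41), and in TAN 20 were lower and 4 higher (median -0.70). Pbk, a mitotic kinase, and Ncapd2, a condensin subunit, fell by 3.03 (adjusted p = 6.2e-10) and 2.68 (adjusted p = 9.3e-09) in G-MDSC. In TAN the largest fall was that of the histone gene H2az1 (-5.43, adjusted p = 1.3e-05), where it had a mean of 8.03 ± 2.74 (SD, n = 4) and was above background on 3 arrays, and whose probe had -1.07 in G-MDSC (adjusted p = 0.292). Between TAN and G-MDSC, 15 of the 22 replication genes and 21 of the 34 mitosis genes were higher in TAN and 1 and 4 were lower. Over all genes 36.4% were higher and 22.6% lower in that comparison.

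Of 15 measured genes that hold cells out of the cycle, 5 (33.3%) rose and 4 (26.7%) fell in G-MDSC, and 5 (33.3%) rose and 5 (33.3%) fell in TAN. In TAN these shares are near the 36.8% higher and 26.2% lower over all genes, and the list did not stand apart there in its counts. In G-MDSC both shares lay above the 18.3% higher and 19.7% lower over all genes. Cdkn1a, which encodes the Cdk inhibitor p21, rose by 2.78 in G-MDSC (adjusted p = 4.0e-06) and by 6.82 in TAN (adjusted p = 5.0e-11), and Gadd45b, induced by stress, rose by 2.86 (adjusted p = 1.5e-08) and 4.29 (adjusted p = 4.8e-11). Cdkn1b, the gene of p27, rose by 1.48 in G-MDSC (adjusted p = 5.5e-04). Tob1, an antiproliferative gene, fell by 3.11 in TAN (adjusted p = 1.0e-06), and Cdkn2d, the gene of the Cdk4 inhibitor p19, fell by 2.46 (adjusted p = 2.1e-06). Cdkn2c, of the same inhibitor family, fell by 1.69 in G-MDSC (adjusted p = 5.7e-09).

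Markers of neutrophil precursors and of erythroid cells were lower than in NN in both populations, as were the cell cycle genes, but between G-MDSC and TAN the precursor markers and the cell cycle genes went opposite ways. The 15 measured markers of neutrophil precursors had mean log2 intensities between 12.22 and 12.68 in NN. The means lay between 9.82 and 10.55 in G-MDSC and between 8.12 and 8.55 in TAN. Of these markers 12 (80.0%) fell in G-MDSC and 13 (86.7%) in TAN, whereas 19.7 and 26.2% of all genes were lower. The 9 erythroid markers had means between 11.50 and 11.93 in NN, between 7.47 and 7.96 in G-MDSC and between 7.12 and 7.56 in TAN, and all 9 fell in both. Of these 9, all were above background on each NN, 4 to 7 on each G-MDSC and 4 to 5 on each TAN. The 20 mitosis genes had 9.35 to 9.69, 7.57 to 7.86 and 8.09 to 8.38 in the same order, and the 15 replication genes 9.40 to 9.96, 7.53 to 8.39 and 8.94 to 9.17. Between TAN and G-MDSC, 9 of the 15 precursor markers were lower in TAN and 1 was higher (median -1.02), and of the erythroid markers 3 were lower, 1 was higher and 5 did not pass (median -0.06), with overlapping means. The members were higher in TAN in 26 of 44 cases (59.1%). Over all genes 22.6% were lower and 36.4% higher in that comparison. Of the precursor markers 60.0% were lower and 6.67% higher, and of the erythroid markers 33.3% were lower and 11.1% higher. On bulk RNA, fewer dividing cells and less RNA per cell cannot be told apart.

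**Figure D4:**
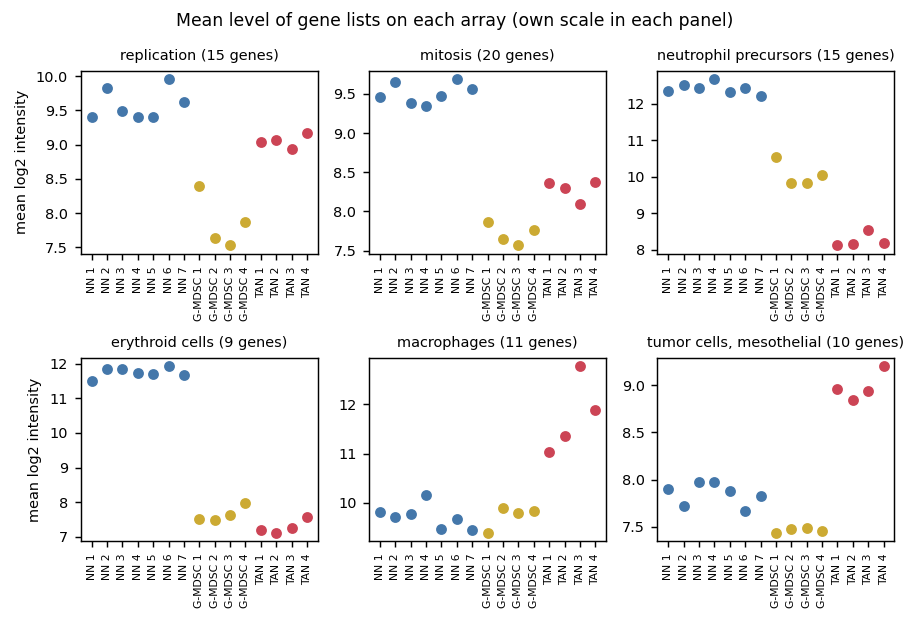
Mean log2 intensity of the measured genes of 6 lists on each array, each panel on its own scale, with NN in blue, G-MDSC in yellow and TAN in red. Replication and mitosis genes are lowest in G-MDSC, precursor markers are lowest in TAN, erythroid markers are low in both G-MDSC and TAN, and macrophage and mesothelial tumor markers are highest in TAN.

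Markers of macrophages and of mesothelial tumor cells were raised in TAN, the population in which replication genes were closer to NN. The 11 macrophage markers had means between 9.45 and 10.17 in NN, between 9.40 and 9.89 in G-MDSC and between 11.04 and 12.77 in TAN, and 7 of 11 (63.6%) were higher in TAN than in NN and 1 was lower, beside 36.8% higher and 26.2% lower over all genes. The 10 mesothelial tumor markers had 7.67 to 7.98, 7.44 to 7.49 and 8.84 to 9.20, with 6 (60%) higher and 3 (30%) lower in TAN than in NN, the latter share near that over all genes. Krt8, a keratin of such cells, was 4.62 higher in TAN than in NN (adjusted p = 5.3e-12). TAN 3, which held the highest Top2a and Cdk1 of the TAN and the lowest Uhrf1, Mcm5, Cdt1 and Prc1, also had the highest mean of macrophage markers. Neutrophil precursor markers (8.55, others 8.12 to 8.19) and mature neutrophil markers (12.97, others 12.70 to 12.80) were highest in TAN 3 among the TAN as well. It also had the smallest share of genes with probes more than 4-fold apart among the TAN (5.48%). In G-MDSC 1 the 7 B cell markers and the 9 T and NK cell markers had means of 9.53 and 9.73, beside group medians of 7.22 and 7.44. G-MDSC 1 was also the highest G-MDSC for the mean of neutrophil precursor markers (10.55, others 9.82 to 10.04) and for Uhrf1, Mcm5 and Cdt1. Without G-MDSC 1, replication genes were lower in G-MDSC in 12 and mitosis genes in 17 cases. The part of macrophages, tumor cells, neutrophil precursors, erythroid cells and lymphocytes in the cell cycle values was not tested.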

How the data were processed

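The authors summarized each array in Bead Studio and deposited, per the file headers, 1 signal intensity for each of 25697 probes, neither background subtracted nor normalized. Background was corrected with the normexp model (offset 50), values were put on the log2 scale and arrays were quantile normalized (limma 3.58.1, R 4.3.3). Of the authors' 16322 normalized probes, 16316 were kept, since 6 varied less than 1.2-fold between arrays. Probes were named from the platform annotation at GEO, which gave no symbol for 995 of those kept. One limma model over all 15 arrays gave the 3 comparisons, with Benjamini-Hochberg adjustment over all 16316 probes, and the script was checked on simulated data. The members and lists were chosen with earlier results of these data known. Named are, for each comparison and class, up to 6 called members of largest difference with no overlap, every G1 gene, every member called against its class or with probes called both ways, up to 4 called genes a list, and other members where a sentence needed them. Alternatives changed the background correction, normalization, source of values, probe filter, probe choice, variance model, arrays in the model, weights and blocks, and left out each array in turn. Setting TAN 3 as the only TAN was added after seeing the data. P-values measure the spread between pools of mice.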

Additional observations from a re-analysis of the deposited data

Results flagged for a closer look

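A single array lay far from the other arrays of its group in 11 of 132 gene and group combinations. The gap between the array and its nearest neighbor, as a share of the range of the group, was above Dixon's critical value, by which chance flags about 1 in 20 groups. Genes of 1 array are not independent, so that the number of combinations cannot be read against that rate. TAN 3 accounted for 9 of the 11. It was the lowest TAN for Cdt1 (9.93, others 10.57 to 10.63), Mcm5 (10.44, others 11.10 to 11.19), Uhrf1 (10.48, others 11.15 to 11.29), Rrm2 (7.20, others 7.98 to 8.08), Foxm1 (7.42, others 8.31 to 8.39), Kif22 (8.30, others 9.61 to 9.82), Tpx2 (7.18, others 8.12 to 8.19) and Prc1 (9.85, others 10.67 to 10.77). For Top2a it was the highest TAN (8.27, others 6.22 to 6.53). G-MDSC 4 was the highest G-MDSC for Cdk1 (7.64, others 7.32 to 7.33) and for Kif11 (6.83, others 6.63 to 6.66). All values are normalized log2 intensities, and of these genes Top2a was above background in 2 of 4 TAN and the others in all 4 arrays of the group.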

How the results depend on the processing

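Of 172 counts of called members under the alternatives, 165 stayed within 1.5 times the reported count and 7 moved. Members higher in TAN than in NN numbered 6 with array weights, 5 within one background level and 6 without TAN 3 and G-MDSC 1, in place of 3, and members lower in TAN than in G-MDSC numbered 6 with array weights and 6 without TAN 3 and G-MDSC 1, in place of 3. The cause was not tested. Leaving out 1 array gave 3 members higher and 35 to 38 lower in G-MDSC than in NN, 3 to 6 higher and 29 to 33 lower in TAN than in NN, and 24 to 28 higher and 3 to 6 lower in TAN than in G-MDSC, the count of 6 in each case without TAN 3. Over all alternatives 33 to 39 members were lower in G-MDSC than in NN, 27 to 33 lower in TAN than in NN and 21 to 30 higher in TAN than in G-MDSC.

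Of the values of single genes under the alternatives, 3657 kept direction and side of the threshold, 63 newly passed it, 56 no longer passed and 8 turned direction. The mean over probes gave, for TAN against G-MDSC, -0.72 for Cdk2 and -0.16 for Birc5. With the background level as a block the same comparison gave -0.03 for Ccnd2, 0.64 for Ccne2 and 0.81 for Mcm7. TAN 3 as the only TAN, which is then assumed to vary like the other groups, gave 0.88 for Cdk1 and 0.76 for Top2a against G-MDSC and -0.67 for Cdc25c against NN. Without TAN 3, Cdk1 and Top2a were lower in TAN than in G-MDSC (-1.10, adjusted p = 7.0e-05, and -1.18, adjusted p = 2.6e-06). Aurka lost its call between TAN and G-MDSC in 9 alternatives.

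Replicate numbers are shared between groups, but deviations of arrays with the same number correlated between -0.31 and 0.27, so that the numbers do not pair the arrays. With the replicate block 16 mitosis genes were lower in G-MDSC and 16 in TAN, and 12 and 6 replication genes. Scaling each array to its median moved the shares of all genes higher and lower in TAN than in G-MDSC to 26.6 and 25.8%, with 11 replication and 9 mitosis genes higher. Dim genes such as Ccna2, Ttk, Ube2c, Ccne2 and Mcm7 lie near background, where small differences are limited by signal.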
